A study of Mus musculus with 20 samples.

Results

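The BCL2 family of apoptosis regulators was examined in LLC1 tumors from mice treated with cisplatin, with KW6002 or with both. The 10 members were taken by mouse gene symbol and are 10 of the 35226 genes in the count table. They comprise the anti-apoptotic Bcl2, Bcl2l1 and Mcl1, the pore-forming effectors Bax, Bak1 and Bok, and the BH3-only genes Bid, Bcl2l11, Bbc3 and Pmaip1. All 10 passed the filter on low counts, so none of them is missing from the tests.

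LLC1 is the Lewis lung carcinoma line, which was grafted under the skin of male C57BL6/J mice, and no genetic alteration of the mice is named. The mice received vehicle, KW6002 (istradefylline, an antagonist of an adenosine receptor), cisplatin (a platinum drug that crosslinks DNA, spelled cisplatine in the labels) or cisplatin and KW6002 together, here called cotreatment. Each group held 5 tumors, and each tumor gave 1 poly(A) RNA library with a total of 28.4 to 41 M reads. The model is a graft of 1 cell line, and the RNA of each tumor also holds that of host cells. Levels are given as CPM, the reads of a gene per M reads of the scaled library, and a gene was called changed at an edgeR quasi-likelihood adjusted P under 0.05 with an absolute log2 fold change of at least 0.32.

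BCL2 family proteins decide at the outer mitochondrial membrane whether a stressed cell dies. BAX, BAK and BOK can form pores that release cytochrome c, BCL2, BCL-XL and MCL1 hold the pore formers and the BH3-only proteins in check, and BH3-only proteins such as BID, BIM, PUMA and NOXA relay the stress signal. DNA damage acts on the family partly through p53, whose known transcriptional targets include Bax, Bbc3 and Pmaip1.

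All members are protein-coding, and positions are given on GRCm38 with GENCODE M21. Bcl2 (ENSMUSG00000057329) is on the minus strand at chr1:106538178-106714274, Bcl2l1 (ENSMUSG00000007659) on the minus strand at chr2:152780668-152831728 and Mcl1 (ENSMUSG00000038612) on the plus strand at chr3:95658788-95663176. Of the effectors, Bax (ENSMUSG00000003873) is on the minus strand at chr7:45461697-45466898, Bak1 (ENSMUSG00000057789) on the minus strand at chr17:27019810-27029009 and Bok (ENSMUSG00000026278) on the plus strand at chr1:93685660-93695764. The BH3-only genes are Bid (ENSMUSG00000004446), minus strand, chr6:120891930-120916853, Bcl2l11 (ENSMUSG00000027381), plus strand, chr2:128126038-128162547 and Bbc3 (ENSMUSG00000002083), plus strand, chr7:16308393-16318205, with Pmaip1 placed further on.

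The RefSeq promoter table (GRCm38.p6) held 14 start sites for 9 of the members, and the 250 bases before each start were searched on both strands. The windows below are shown because they hold letters read by p53 or FOXO factors, 2 of the 5 motifs searched, and because Bax, Bbc3 and Bcl2l11 were called changed in the comparisons described further on. Capitals mark a p53 decamer consensus in Bax, at 201 to 192 bases before the start, and the letters GTAAACA, bound by FOXO factors, in Bcl2l11 at 227 to 221 bases and in Bbc3 at 167 to 161 bases before the start. The Bbc3 match lies on the other strand and therefore reads TGTTTAC.
Bax, chr7:45466899-45467148, minus strand: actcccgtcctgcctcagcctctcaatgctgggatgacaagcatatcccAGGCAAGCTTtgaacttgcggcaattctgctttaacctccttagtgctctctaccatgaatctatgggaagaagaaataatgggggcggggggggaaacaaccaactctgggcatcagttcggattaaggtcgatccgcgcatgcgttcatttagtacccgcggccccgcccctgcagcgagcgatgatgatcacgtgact
Bcl2l11, chr2:128125788-128126037, plus strand: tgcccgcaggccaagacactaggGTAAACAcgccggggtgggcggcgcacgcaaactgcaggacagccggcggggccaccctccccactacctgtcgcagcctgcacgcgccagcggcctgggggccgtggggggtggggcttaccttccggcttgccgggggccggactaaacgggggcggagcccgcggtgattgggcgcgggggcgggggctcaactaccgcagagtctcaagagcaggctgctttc
Bbc3, chr7:16310011-16310260, plus strand: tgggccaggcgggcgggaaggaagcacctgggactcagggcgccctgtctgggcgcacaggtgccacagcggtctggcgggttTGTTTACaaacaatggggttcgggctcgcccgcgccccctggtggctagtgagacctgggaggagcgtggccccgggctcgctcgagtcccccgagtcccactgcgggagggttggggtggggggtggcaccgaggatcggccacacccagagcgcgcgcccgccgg

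The Bax window ends directly before the annotated gene, as does the Bcl2l11 window, whereas the Bbc3 window precedes an alternative start within the gene. The p53 decamer consensus was in 7.13% of all 32851 windows of the table and in 1 of the 14 member windows. A p53 response element consists of a pair of such decamers, and the Bax window held a single one. The consensus allows alternative bases and is symmetric, so the match is counted on both strands. GTAAACA was in 3.17% of all windows and in 2 member windows. The Sp factor letters GGGCGG were in 32.7% of all windows and in 10 member windows, the E-box CACGTG was in 6.02% and in 2 (1 of Bax and 1 of Bbc3), and TATAAA was in 12.4% and in 0. No motif overlapped the ones in capitals. These matches describe the windows and say nothing of binding.

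In vehicle-treated tumors, the members differed widely in level once reads were divided by exon length. Mcl1 was highest at 79.8 ± 8.96 CPM per kb (SD, n = 5), followed by Bax at 66.1 ± 3.87, Bak1 at 31.1 ± 2.47, Bcl2l1 at 21.1 ± 1.62 and Bok at 17.4 ± 2.69 CPM per kb. The lower ranks held Bcl2l11 at 10.0 ± 0.516, Bid at 8.03 ± 0.146, Bcl2 at 7.80 ± 0.582, Pmaip1 at 4.95 ± 1.90 and Bbc3 at 2.65 ± 0.382 CPM per kb. The ranges of the 5 tumors overlapped between Mcl1 and Bax, Bcl2l1 and Bok, Bid and Bcl2, Bcl2 and Pmaip1, and Pmaip1 and Bbc3. Within single tumors the order was nevertheless kept in 5 of 5 for Mcl1 over Bax, Bcl2 over Pmaip1 and Pmaip1 over Bbc3, in 4 of 5 for Bcl2l1 over Bok and in 3 of 5 for Bid over Bcl2. The ranges of the remaining neighbours (Bax and Bak1, Bak1 and Bcl2l1, Bok and Bcl2l11, Bcl2l11 and Bid) did not overlap. Thus the effectors Bax and Bak1 and the anti-apoptotic Mcl1 gave the most reads per length.

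Several properties of the libraries bear on the results below. The codes that the labels attach to the libraries fall into an earlier and a later run of numbers, whose meaning is not stated, and the groups are spread unevenly over them: the earlier run holds 8 tumors (1 vehicle, 2 KW6002, 2 cisplatin, 3 cotreatment), while in the later run these groups have 4, 3, 3 and 2. The title of vehicle replicate 1 has a form of its own, and it was counted as vehicle. Among markers of the tumor, Krt8 and Krt18 were abundant, but Epcam reached at most 5 counts in any tumor, and the lung epithelial markers Sftpc and Scgb1a1 stayed under 10 counts. The summed level of the 5 tumor epithelial markers was 392 to 426 CPM in vehicle, 324 to 435 CPM in KW6002-treated, 481 to 599.6 CPM in cisplatin-treated and 468 to 549 CPM in cotreated tumors, so the tumors given cisplatin did not overlap with the others. Of the 4 tumor epithelial markers tested, 1 was called higher and 0 lower in each cisplatin arm. This was Krt8, at 129 ± 8.38 CPM in vehicle, 185 ± 19.9 CPM after cisplatin and 191 ± 7.51 CPM after cotreatment (SD, n = 5). The sum consists mostly of Krt8 and Krt18, the latter at means of 273, 339.5 and 316 CPM in these groups. Krt19 (2.42, 4.14 and 2.29 CPM) and Cdh1 (1.91, 1.86 and 2.16 CPM) add little to it and were not called. The summed level of 5 endothelial markers was 123 to 183 CPM in vehicle, 57.3 to 79.1 CPM in cisplatin-treated and 61.4 to 96.5 CPM in cotreated tumors, with 5 and 4 of the 5 called lower. The summed level of 5 neutrophil markers, of which Ly6g stayed under 10 counts, was 42.7 to 117, 11.5 to 63.5 and 12.1 to 29.4 CPM in the same groups, with 2 and 4 called lower, and all 5 red blood cell markers were called lower in both. Macrophage and fibroblast sums overlapped between the groups, but single tumors given cisplatin stood above vehicle. The fibroblast sum was 3860.2 and 3390.2 CPM in cisplatin replicates 4 and 5, against 2144 to 2424 CPM in replicates 1 to 3 and up to 3175 CPM in vehicle, and the macrophage sum was 1264 to 1551 CPM in cisplatin replicates 3 to 5, against up to 1177 CPM in vehicle. Among cotreated tumors the fibroblast sum was 3335 CPM in replicate 5, against 2529 to 2749 CPM in the others, and that tumor had the lowest Bbc3 (6.33 CPM) and Pmaip1 (28 CPM) and the highest Bok (25.5 CPM) of its group. Of the 5 macrophage markers, 1 was called higher after cisplatin, and 1 higher and 1 lower after cotreatment, and of the 5 fibroblast markers 2 and 1 were called lower. Single libraries also stood apart from their group. The summed level of 4 skeletal muscle markers was 932 CPM in cotreatment replicate 4, against 1.24 to 219.7 CPM in the other tumors, and that tumor had the lowest Bcl2l11 (93.8 CPM) and Bmf (29.2 CPM) of the cotreated group. The summed level of 3 B cell markers was 32.9 CPM in KW6002 replicate 1, against 0.156 to 0.552 CPM in the other tumors, and its T and NK cell sum was 15.7 CPM, against 1.27 to 7.17 CPM. The summed level of 4 fat markers was 64.0 CPM in vehicle replicate 2, against 0.110 to 0.725 CPM in the other vehicle tumors and up to 26.7 CPM elsewhere, and that tumor had the highest Bax (114 CPM), Bcl2l1 (109 CPM), Bbc3 (6.96 CPM) and Pmaip1 (21.6 CPM) of the vehicle group. In bulk tumors, fewer cells of a type and less RNA per cell cannot be told apart, and the part of these shifts in the results on the family was not tested.

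**Figure D1:**
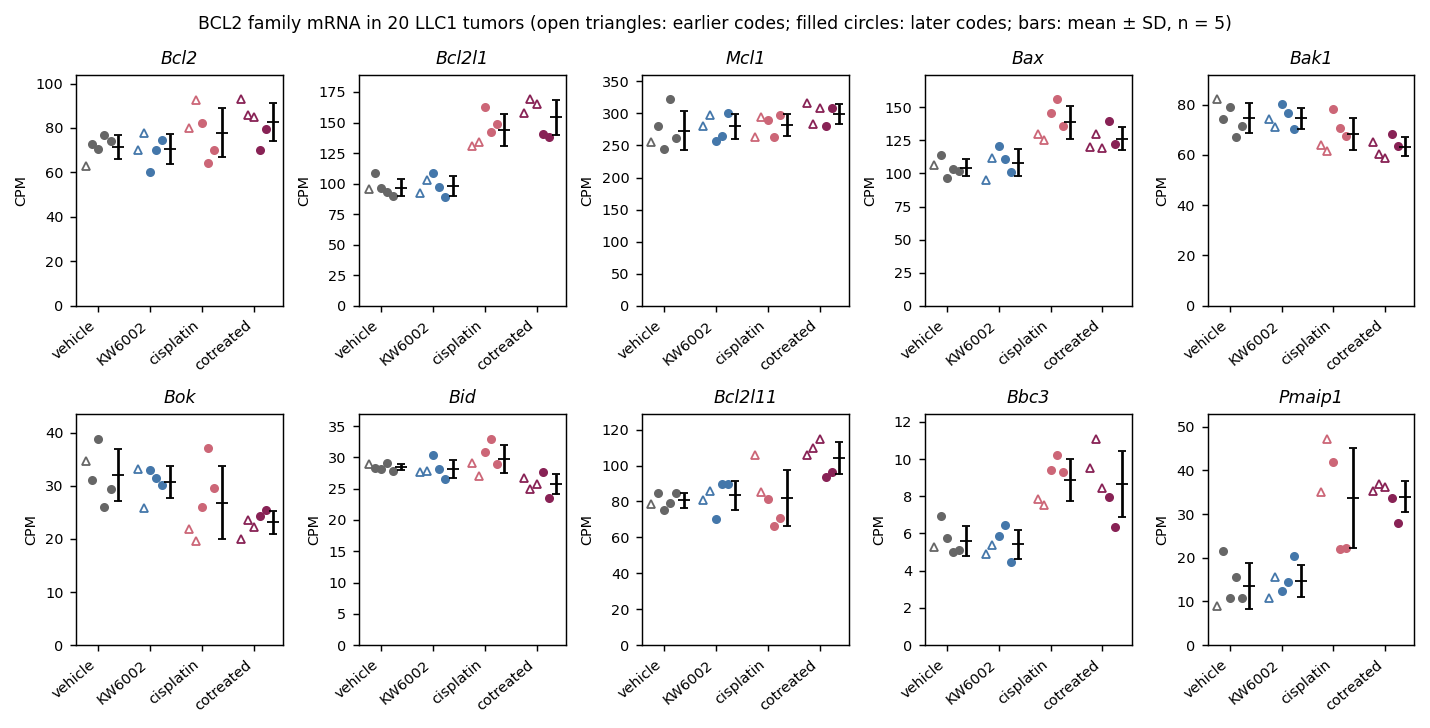
Level of each of the 10 members in CPM (y axes start at 0) in every tumor by treatment group (x axis), with 5 points per group (triangles for the earlier and circles for the later run of library codes) and bars for the mean and SD. Bcl2l1, Bax, Bbc3 and Pmaip1 lie higher in the cisplatin-treated tumors than in every vehicle tumor, and Bcl2l11 lies higher in every cotreated tumor than in every vehicle tumor.

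The first comparison asked whether KW6002 alone changed the family in tumors. No member was called: 0 of 10 passed by edgeR, and 0 had an unadjusted P under 0.05 with either edgeR or DESeq2, beside 0% of all 16665 genes called. Log2 fold changes ran from -0.06 for Bok (95% interval -0.35 to 0.23) to 0.12 for Pmaip1 (-0.40 to 0.64). The intervals were narrowest for Bid (-0.14 to 0.10), Bak1 (-0.14 to 0.13) and Mcl1 (-0.10 to 0.18). The groups overlapped for all 10 members, where 0.342% of all genes did not overlap.

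The second comparison asked what cisplatin alone did. Of the 10 members, 4 rose and 0 fell, beside 10.6% of all genes called, 6.01% higher and 4.57% lower. The members that rose were Bcl2l1, Bax, Bbc3 and Pmaip1, that is 1 of 3 anti-apoptotic genes, 1 of 3 effectors and 2 of 4 BH3-only genes. The same 4 members did not overlap between the groups, as did 10.4% of all genes. The median log2 fold change of the members was 0.09, beside 0.00 for all genes.

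The third comparison set cotreated against vehicle tumors, and here 5 of 10 members were called, 4 higher and 1 lower, beside 23.5% of all genes called, 13.1% higher and 10.4% lower. Bcl2l1, Bbc3, Pmaip1 and Bcl2l11 rose and Bok fell. Another 2 members, Bax and Bak1, had an adjusted P under 0.05 and a fold change below the limit. An adjusted P under 0.05, whatever the fold change, was thus found in 7 of 10 members, beside 35.4% of all genes. In 6 members the groups did not overlap, beside 24.7% of all genes. The median over the members was 0.24, beside -0.02 for all genes. Both comparisons use the same 5 vehicle tumors, so their values are given side by side and their likeness is not read as a result.

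**Figure D2:**
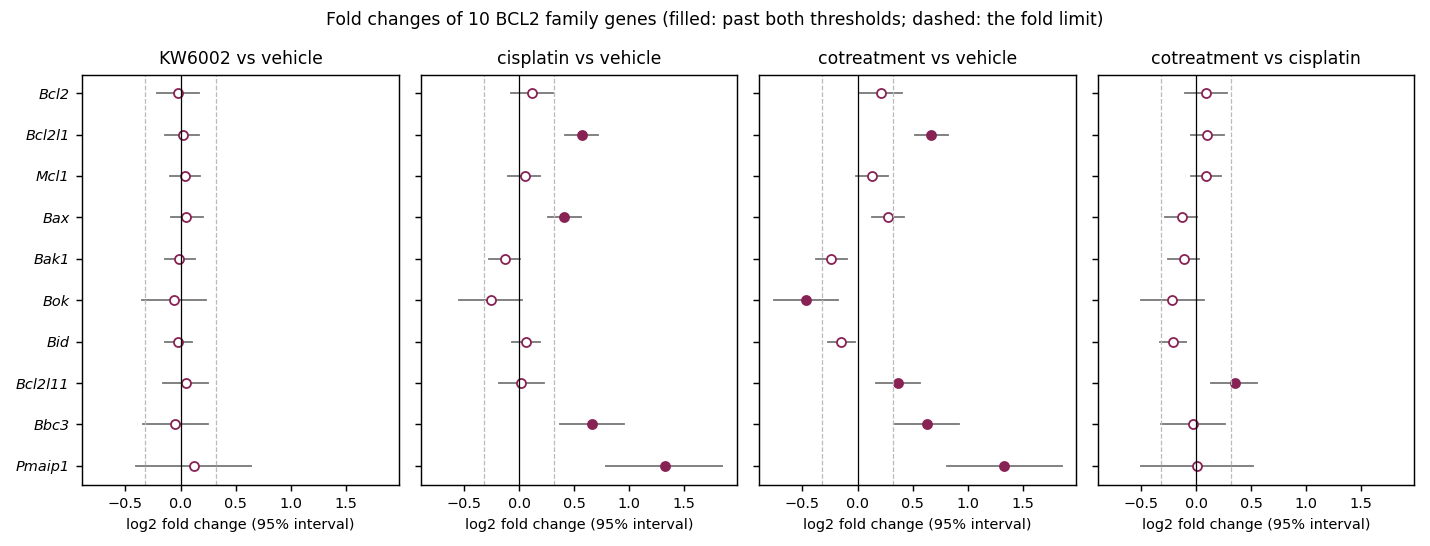
Log2 fold change of each member (x axis) in the comparisons with vehicle and of cotreatment with cisplatin, with bars for the 95% interval of the edgeR fit and filled points for called members. Bcl2l1 at 0.57 and 0.67 and Pmaip1 at 1.32 and 1.33 are called in both comparisons with vehicle, and Bcl2l11 at 0.35 is the member called between cotreatment and cisplatin.

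Among the anti-apoptotic members, Bcl2l1, which encodes BCL-XL, was measured at 95.2, 109, 96.2, 93.3 and 90.1 CPM in the vehicle tumors and at 131, 134, 163, 142 and 149 CPM after cisplatin. Cotreated tumors had 158, 169, 165, 141 and 138 CPM, and KW6002-treated tumors 92.2, 103, 109, 97.0 and 89.4 CPM. Every tumor that received cisplatin lay above every tumor that did not. Means were 96.9 ± 7.44 CPM in vehicle, 98.1 ± 7.94 with KW6002, 144 ± 12.7 with cisplatin and 154 ± 13.8 CPM with cotreatment (SD, n = 5). The edgeR log2 fold change against vehicle was 0.57 ± 0.0739 (SE, adjusted P = 3.91e-05) after cisplatin and 0.67 ± 0.0740 (adjusted P = 1.32e-06) after cotreatment, that is 1.48-fold and 1.59-fold higher.

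Mcl1, whose short-lived product guards against BAK, did not pass the test in either comparison. Its levels were 255, 280.1, 245, 322 and 262 CPM in vehicle, 264, 295, 289, 263 and 297 CPM after cisplatin and 316, 284, 308, 281 and 308 CPM after cotreatment. These ranges overlapped, and the edgeR log2 fold changes were 0.05 (95% interval -0.10 to 0.19, adjusted P = 0.693) and 0.13 (-0.01 to 0.28, adjusted P = 0.136). Bcl2, the founding member, had 62.8 to 76.8 CPM in vehicle, 64.4 to 92.8 CPM after cisplatin and 70.3 to 92.9 CPM after cotreatment. Its log2 fold changes of 0.12 (95% interval -0.07 to 0.31, edgeR adjusted P = 0.369) and 0.21 (0.02 to 0.40, adjusted P = 0.0775) were not called. The cisplatin-treated tumors of the earlier run had a mean of 86.4 CPM of Bcl2 and those of the later run 72.2 CPM.

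Of the effectors, Bax was measured at 106, 114, 96.9, 103 and 102 CPM in vehicle, at 130.1, 125, 146, 156 and 136 CPM after cisplatin and at 120.3, 129.7, 119.5, 139.6 and 122 CPM after cotreatment. Neither treated group overlapped with vehicle, and both overlapped with each other. Bax rose after cisplatin by a log2 fold change of 0.41 ± 0.0703 (SE, edgeR adjusted P = 0.000521), or 1.33-fold. After cotreatment the value was 0.28 ± 0.0702 (adjusted P = 0.00410), which lies below the fold limit, and it was not called over all tumors. It was called without vehicle replicate 2 (0.32, adjusted P = 0.00257), in the later run alone (0.35, adjusted P = 0.0197) and with no fold limit. The difference of cotreatment from cisplatin was -0.13 (95% interval -0.28 to 0.01, adjusted P = 0.257), so a lower Bax level after cotreatment than after cisplatin alone was not established. Bax shares 192 exon bases (12.2% of its own) with Gm45808 on the same strand, which is not among the genes counted. Over these shared bases, reads of Gm45808 cannot be told apart from those of Bax.

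Bak1 was not called in either comparison with vehicle, with values below 0 in both. Vehicle tumors had 82.1, 74.4, 79.0, 67.2 and 71.3 CPM, cisplatin-treated tumors 63.8, 61.7, 78.1, 70.8 and 67.5 CPM and cotreated tumors 65.3, 60.5, 58.9, 68.3 and 63.5 CPM. The cotreated tumors reached up to 68.3 CPM, just above the lowest vehicle tumor at 67.2 CPM. The log2 fold change was -0.13 ± 0.0666 after cisplatin (SE, edgeR adjusted P = 0.192) and -0.24 ± 0.0667 after cotreatment (adjusted P = 0.00770, below the fold limit). Ggnbp1, which overlaps Bak1 on the opposite strand, had median counts of 34 and 58 at its 2 entries, against 2363 for Bak1.

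Bok, the effector that does not depend on the other two for its activity, had the highest coefficient of variation of the effectors in cisplatin-treated tumors, 25.9% against 9.06% for Bax and 9.44% for Bak1. It was at 34.6, 31.1, 38.9, 26.0 and 29.5 CPM in vehicle, at 21.8, 19.6, 26.1, 37.2 and 29.6 CPM after cisplatin and at 20, 23.5, 22.2, 24.3 and 25.5 CPM after cotreatment. All cotreated tumors were below all vehicle tumors, though the highest cotreated tumor (25.5 CPM) was close to the lowest vehicle tumor (26.0 CPM). Bok fell after cotreatment with a log2 fold change of -0.47 ± 0.138 (SE, edgeR adjusted P = 0.0113), or 1.39-fold lower. After cisplatin the value was -0.25 ± 0.138 (adjusted P = 0.216). Without cisplatin replicate 4, the tumor at 37.2 CPM, it became -0.39 and passed the test (adjusted P = 0.0427). Over all alternative fits the value after cisplatin ran from -0.39 to -0.0. Within the later run, mean Bok was 31.4 CPM in vehicle and 31.0 CPM after cisplatin. The cisplatin-treated tumors of the earlier run had 19.6 and 21.8 CPM and those of the later run 26.1 to 37.2 CPM, and within the later run the difference of cotreatment from vehicle was -0.32 (adjusted P = 0.189).

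The BH3-only gene Pmaip1, which encodes the p53 target NOXA, had the largest fold change of the 10 members against vehicle, after cisplatin and after cotreatment. It lies on the plus strand at chr18:66458533-66465565 (ENSMUSG00000024521). It was at 8.88, 21.6, 10.7, 15.7 and 10.7 CPM in vehicle tumors and at 35.0, 47.3, 42.0, 22.0 and 22.3 CPM after cisplatin. Cotreated tumors had 35.3, 37.0, 36.2, 33.6 and 28 CPM, and KW6002-treated tumors 10.8 to 20.3 CPM. The lowest cisplatin-treated tumor, at 22.0 CPM, was just above the highest vehicle tumor, at 21.6 CPM, whereas the cotreated tumors stood clear of vehicle. Pmaip1 rose 2.49-fold after cisplatin (log2 fold change 1.32 ± 0.249 SE, edgeR adjusted P = 0.00166) and 2.52-fold after cotreatment (1.33 ± 0.249, adjusted P = 0.000463). Within the later run, the cotreatment value was 1.09 and was not called (edgeR adjusted P = 0.0626). The difference between the cisplatin arms was 0.01 (95% interval -0.50 to 0.52).

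Bbc3, which encodes PUMA, another p53 target, was the member with the fewest reads. Its levels were 5.28, 6.96, 5.78, 4.98 and 5.09 CPM in vehicle, 7.88, 7.52, 9.41, 10.2 and 9.33 CPM after cisplatin and 9.52, 11.1, 8.46, 7.98 and 6.33 CPM after cotreatment. Cisplatin-treated tumors all exceeded vehicle, while cotreated replicate 5 at 6.33 CPM fell within the vehicle range. Bbc3 rose 1.58-fold after cisplatin (log2 fold change 0.66 ± 0.141 SE, edgeR adjusted P = 0.00314) and 1.55-fold after cotreatment (0.63 ± 0.141, adjusted P = 0.00148). Within the later run, the cotreatment value was 0.35 (adjusted P = 0.199), with a mean of 7.16 CPM in its 2 cotreated tumors against 9.70 CPM in the 3 of the earlier run.

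Bcl2l11, which encodes BIM, was the member called between the 2 cisplatin arms. That call was lost when any 1 of 6 tumors was left out, as described below. Vehicle tumors had 78.8, 84.9, 75.3, 79.3 and 84.7 CPM, and KW6002-treated tumors 81.0, 85.7, 70.3, 89.9 and 89.8 CPM. Cisplatin-treated tumors had 106, 85.2, 81.6, 66.3 and 70.6 CPM, and cotreated tumors 106, 109.9, 115, 93.8 and 96.5 CPM. All cotreated tumors lay above all vehicle and KW6002 tumors, but cisplatin replicate 1 lay within the cotreated range. The log2 fold change of cotreatment against vehicle was 0.37 ± 0.0979 (SE, edgeR adjusted P = 0.00568), and that of cisplatin against vehicle was 0.02 ± 0.0980 (adjusted P = 0.899). The cotreatment value was 0.30 with the run as a term, below the fold limit, and 0.25 within the later run (edgeR adjusted P = 0.115).

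Bid, which links death receptors to mitochondria once caspase 8 cleaves it, was the steadiest member in vehicle, at 29.0, 28.3, 28.1, 29.1 and 27.9 CPM. It was at 29.1, 27.1, 30.9, 33.0 and 28.9 CPM after cisplatin and at 26.7, 24.9, 25.8, 27.7 and 23.5 CPM after cotreatment. All cotreated tumors were below all vehicle tumors by a small margin, with a log2 fold change of -0.15 ± 0.0592 (SE, edgeR adjusted P = 0.0578), which was not called. After cisplatin it was 0.06 ± 0.0591 (adjusted P = 0.484). Of the exon bases of Bid, 628 (17.7%) are shared with Bcl2l13 on the opposite strand, which had a median of 2160 counts against 883 for Bid, and since the strand option of the counting is not stated, the level of Bid is uncertain.

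The fourth comparison, cotreatment against cisplatin, asked what KW6002 added to cisplatin. Of the 10 members, 1 was called, beside 4.0% of all genes called, 2.29% higher and 1.71% lower. This was Bcl2l11, which was 1.27-fold higher, with a log2 fold change of 0.35 ± 0.0978 (SE, edgeR adjusted P = 0.0380). Bid was lower by a log2 fold change of -0.21 ± 0.0591 (adjusted P = 0.0357), below the fold limit. Whatever the fold change, 2 of 10 members had an adjusted P under 0.05, beside 6.52% of all genes. The groups overlapped for all 10 members, where 4.83% of all genes did not overlap. The Bcl2l11 call was lost when any 1 of 6 tumors was left out (cisplatin replicates 3, 4 and 5 and cotreatment replicates 1, 2 and 3), with log2 fold changes of 0.28 to 0.35 and adjusted P values of 0.0738 to 0.113. In those fits, 289 to 500 of all genes were called, against 667 with all tumors. Within the earlier run of codes the value was 0.21 (adjusted P = 0.260), within the later run 0.39 (adjusted P = 0.237).

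For the other 8 members the differences between cotreatment and cisplatin ran from -0.22 for Bok (95% interval -0.50 to 0.07) to 0.10 for Bcl2l1 (-0.05 to 0.25). The interval of Mcl1 was -0.05 to 0.23 and that of Bak1 -0.25 to 0.03. Intervals of Bbc3 (-0.32 to 0.26) and Pmaip1 (-0.50 to 0.52) were wider, so a modest effect of KW6002 on them was not detectable.

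Whether the effect of KW6002 differed with and without cisplatin was tested by the interaction. By edgeR, 0 of 10 members were called, beside 0.0660% of all genes, 0.0360% higher, and 2 had an unadjusted P under 0.05, as with DESeq2, which also called 0 members. Over all genes this test was unstable, with 11 called by edgeR, 258 by DESeq2, and 0 to 229 by edgeR when a tumor was left out (229 without cotreatment replicate 4). The 2 members with an unadjusted P under 0.05 were Bcl2l11 (0.30, 95% interval 0.01 to 0.59, adjusted P = 0.388) and Bid (-0.19, -0.37 to -0.02, adjusted P = 0.356), and neither was called. A difference between the effects of KW6002 in the presence and absence of cisplatin was therefore not established for any member.

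The comparison of cotreatment with KW6002 called 5 of 10 members, beside 23.3% of all genes called, 12.6% higher and 10.7% lower. Bcl2l1 (log2 fold change 0.65), Bbc3 (0.68), Pmaip1 (1.21) and Bcl2l11 (0.32) rose and Bok (-0.41) fell. Bax (0.23, edgeR adjusted P = 0.0163) and Bak1 (-0.23, adjusted P = 0.00925) lay below the fold limit. Whatever the fold change, 7 of 10 members had an adjusted P under 0.05, beside 35.0% of all genes. In 5 members the groups did not overlap, beside 24.9% of all genes. Over all tumors, the call of Bok (edgeR adjusted P = 0.0250) was lost with no filter on low counts (-0.40, adjusted P = 0.0570). That of Bcl2l11 (adjusted P = 0.0142) was lost with the run as a term (0.28). It was also lost with upper quartile scaling and with the replicate block (each 0.32, under the limit before rounding). Both calls were borderline when tumors were left out. That of Bok was lost without KW6002 replicate 1, 3 or 4 or cotreatment replicate 1, 2 or 3 (log2 fold change -0.41 to -0.36, adjusted P = 0.0506 to 0.0640), and that of Bcl2l11 fell below the fold limit without KW6002 replicate 1 or 3 or cotreatment replicate 1, 2 or 3 (log2 fold change 0.27 to 0.32, the highest of them under the limit before rounding, with adjusted P = 0.0276 to 0.0387).

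**Figure D3:**
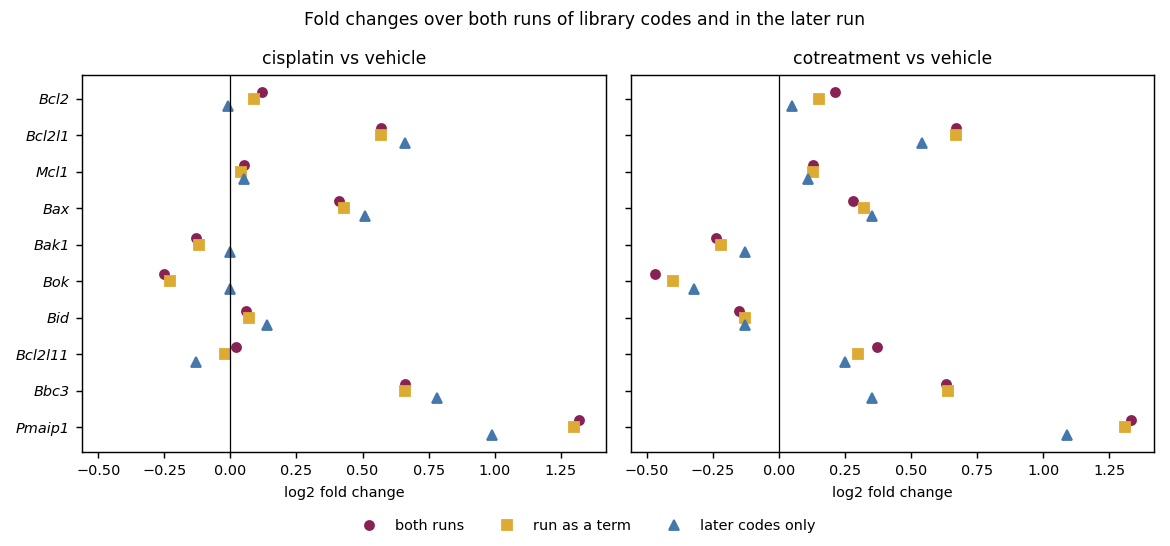
Log2 fold change against vehicle (x axis) for each member over all tumors, with the run of library codes as a term of the fit, and within the later run alone. Pmaip1, Bbc3, Bax and Bcl2l1 stay on the right in both panels, and Bcl2l11 after cisplatin moves from 0.02 to -0.13 in the later run.

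The 4 calls after cisplatin (Bcl2l1, Bax, Bbc3 and Pmaip1) held within the later run and with the run as a term, that of Pmaip1 narrowly in the later run (edgeR adjusted P = 0.0499). After cotreatment, 2 members (Bcl2l1 and Bax) were called within the later run, which leaves 4 vehicle and 2 cotreated tumors. Of all genes, 2209 were called there, against 3914 over all tumors, while for cisplatin against vehicle the later run called 2743, against 1762. Pmaip1 had a log2 fold change of 1.09 there (edgeR adjusted P = 0.0626) and Bcl2l11 of 0.25 (adjusted P = 0.115), and with the run as a term that of Bcl2l11 was 0.30, below the fold limit. Bcl2l11 in cisplatin-treated tumors had a mean of 95.5 CPM in the earlier and 72.8 CPM in the later run, and in cotreated tumors 110.1 and 95.1 CPM. Cisplatin replicates 4 and 5, both of the later run and with the highest fibroblast sums, had the lowest Bcl2l11 (66.3 and 70.6 CPM) and Pmaip1 (22.0 and 22.3 CPM) and the highest Bok (37.2 and 29.6 CPM) of the cisplatin-treated tumors, and the part of either feature was not tested. Pmaip1 in cisplatin-treated tumors had 41.2 and 28.8 CPM, while Bax went the other way with 127 and 146 CPM. The earlier run holds 1 vehicle tumor and gives no comparison with vehicle.

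The balance of effector and anti-apoptotic transcripts is given as a description with no test. The ratio of Bax to Bcl2 in CPM was 1.47 ± 0.148 in vehicle, 1.55 ± 0.277 with KW6002, 1.82 ± 0.401 with cisplatin and 1.55 ± 0.263 with cotreatment (SD, n = 5). It ranged from 1.34 to 1.68 in vehicle and from 1.35 to 2.42 after cisplatin, and the groups overlapped. The ratio of Bax to Bcl2l1 was 1.08 ± 0.0532, 1.10 ± 0.0444, 0.966 ± 0.0828 and 0.826 ± 0.110 in the same order. Each cotreated tumor (0.725 to 0.991) was below each vehicle tumor (1.01 to 1.13), and cisplatin replicate 4 at 1.10 was within the vehicle range. The ratio of Bax to Bcl2 and that to Bcl2l1 thus differed in which way their means moved after cisplatin.

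**Figure D4:**
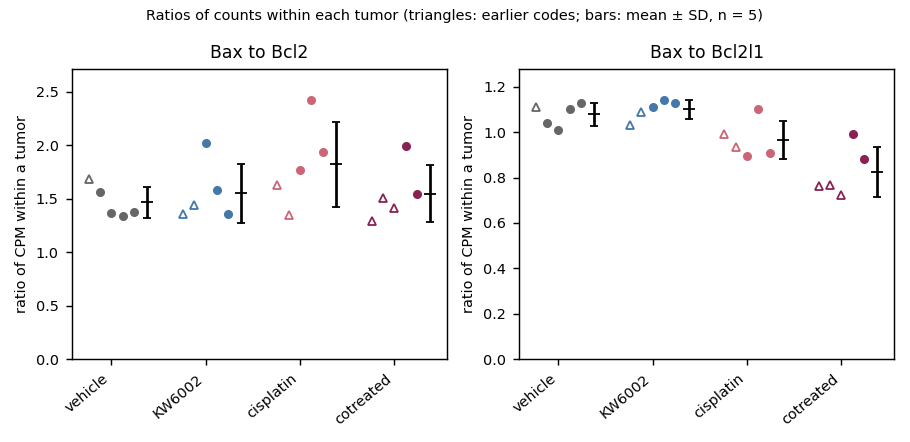
Ratio of Bax to Bcl2 and of Bax to Bcl2l1 in CPM (y axes start at 0) per tumor and treatment group, with bars for the mean and SD of 5 tumors. The mean ratio to Bcl2 is highest after cisplatin at 1.82, while the ratio to Bcl2l1 is lowest after cotreatment at 0.826.

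Of 15 other genes of the family, 13 were tested (Bcl2l10 and Hrk were too low), and 1 rose after cisplatin, Bcl2l15, by a log2 fold change of 0.38 (edgeR adjusted P = 0.0296). This is 1 of 13, beside 10.6% of all genes called. After cotreatment 1 rose and 2 fell, or 3 of 13, beside 23.5% of all genes. Bmf, a BH3-only gene whose product is held at the cytoskeleton, was at 20.8 ± 3.74 CPM in vehicle and 55.8 ± 18.3 CPM in cotreated tumors (SD, n = 5) and rose by 1.43 on the log2 scale (adjusted P = 1.61e-05). After cisplatin alone it was at 26.6 ± 3.35 CPM (0.35, adjusted P = 0.210), and it was higher after cotreatment than after cisplatin by 1.07 (adjusted P = 0.00378), although the ranges of 23.4 to 31.9 and 29.2 to 70.1 CPM overlapped. The interaction of Bmf was 1.23 and was called by DESeq2 (adjusted P = 0.000945) but not by edgeR (adjusted P = 0.0679). Bik (-1.45, adjusted P = 0.0278) and Bcl2l14 (-1.46, adjusted P = 0.0220) fell after cotreatment from levels of 0.430 ± 0.167 and 0.448 ± 0.193 CPM. Bcl2l15 was lower after cotreatment than after cisplatin by -0.45 (adjusted P = 0.0228). The median of the list was 0.03 after cisplatin and -0.08 after cotreatment, beside 0.00 and -0.02 for all genes.

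Downstream of the pores, 17 genes of the apoptosome and caspases were tested. After cisplatin 0 rose and 1 fell (10.6% of all genes called), namely Birc3, an inhibitor of apoptosis induced by NF-kB, with a log2 fold change of -0.38 (edgeR adjusted P = 0.00528). After cotreatment 1 rose and 1 fell (23.5% of all genes called). Apaf1, the scaffold of the apoptosome, rose from 118 ± 9.91 to 157 ± 24.6 CPM (0.41, adjusted P = 0.00877), and Cycs, cytochrome c, fell from 3.88 ± 0.849 to 2.80 ± 0.398 CPM (-0.47, adjusted P = 0.0397). Cycs has many processed copies in the genome, and the use of uniquely aligned reads makes its level uncertain. Between cotreatment and cisplatin Apaf1 was not called (0.28, adjusted P = 0.143). The other 15 were not called after cotreatment, and the median of the list was -0.07 after cisplatin and -0.05 after cotreatment. Of those 15, Htra2 (-0.31, edgeR adjusted P = 0.000381), Vdac2 (-0.19, adjusted P = 0.00578), Aifm1 (-0.18, adjusted P = 0.0162) and Birc3 (-0.24, adjusted P = 0.0390) were lower than in vehicle, below the fold limit.

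Of 10 genes of the death receptor input, 1 rose and 1 fell after cisplatin, and 1 rose and 3 fell after cotreatment, beside 10.6% and 23.5% of all genes called. Fas, a death receptor and p53 target, rose from 3.01 ± 0.348 CPM to 5.31 ± 1.09 CPM after cisplatin (log2 fold change 0.82, edgeR adjusted P = 0.00110) and to 5.44 ± 0.782 CPM after cotreatment (0.86, adjusted P = 0.000219). Tnfsf10, which encodes the death ligand TRAIL, fell by 1.13 (adjusted P = 0.00890) and by 1.49 (adjusted P = 0.000389) on the log2 scale. Fadd (-0.34, adjusted P = 0.00177) and Casp8 (-0.33, adjusted P = 0.000673), adaptor and initiator caspase of this route, fell after cotreatment. After cisplatin neither was called (-0.21, edgeR adjusted P = 0.0664, and -0.16, adjusted P = 0.0974). Between cotreatment and cisplatin Fadd differed by -0.13 (adjusted P = 0.328) and Casp8 by -0.17 (adjusted P = 0.144). A difference between the cisplatin arms was thus not established for either gene. DESeq2 placed Casp8 (-0.32 when rounded, adjusted P = 5.52e-05) under the fold limit and called the other 3 after cotreatment.

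Among upstream regulators, 13 of 14 listed genes were tested, Trp73 being too low. Mdm2, the ubiquitin ligase that p53 induces and that degrades p53, rose from 161 ± 12.9 CPM to 259.9 ± 40.5 CPM after cisplatin (log2 fold change 0.69, edgeR adjusted P = 2.61e-05) and to 261 ± 21.8 CPM after cotreatment (0.70, adjusted P = 4.45e-06), with no overlap with vehicle. Trp53 itself was at 219 ± 18.3 CPM in vehicle, 239.9 ± 8.62 CPM after cisplatin and 226 ± 13.2 CPM after cotreatment, and was not called (0.13, adjusted P = 0.164, and 0.04, adjusted P = 0.625). The transcription factors E2f1 (-0.32, adjusted P = 0.000706) and Jun (-0.32, adjusted P = 0.0161) fell after cotreatment, and Jun was also lower after cotreatment than after cisplatin (-0.36, adjusted P = 0.0373). Both lie at the fold limit after cotreatment against vehicle, and with DESeq2 neither was called there (each -0.31, adjusted P = 8.27e-05 and 0.0123), which left Mdm2. After cisplatin DESeq2 also called the stress factor Ddit3 (0.61, adjusted P = 0.0485), which edgeR did not (0.60, adjusted P = 0.105). Ddit3 was at 13.0, 13.8, 18.5, 27.9 and 44.4 CPM after cisplatin against 13.7 to 18.3 CPM in vehicle, so the groups overlapped and replicates 4 and 5 were the high tumors. Of this list edgeR called 1 of 13 after cisplatin and 3 of 13 after cotreatment, beside 10.6% and 23.5% of all genes. Foxo1 and Foxo3, whose motif is shown in the Bcl2l11 and Bbc3 windows, were not called in either comparison with vehicle, though Foxo3 had a log2 fold change of 0.20 after cotreatment (adjusted P = 0.0210, below the fold limit). In the comparison of KW6002 with vehicle, 0 genes of these 4 lists were called by edgeR or DESeq2, and 0 had an unadjusted P under 0.05.

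**Figure D5:**
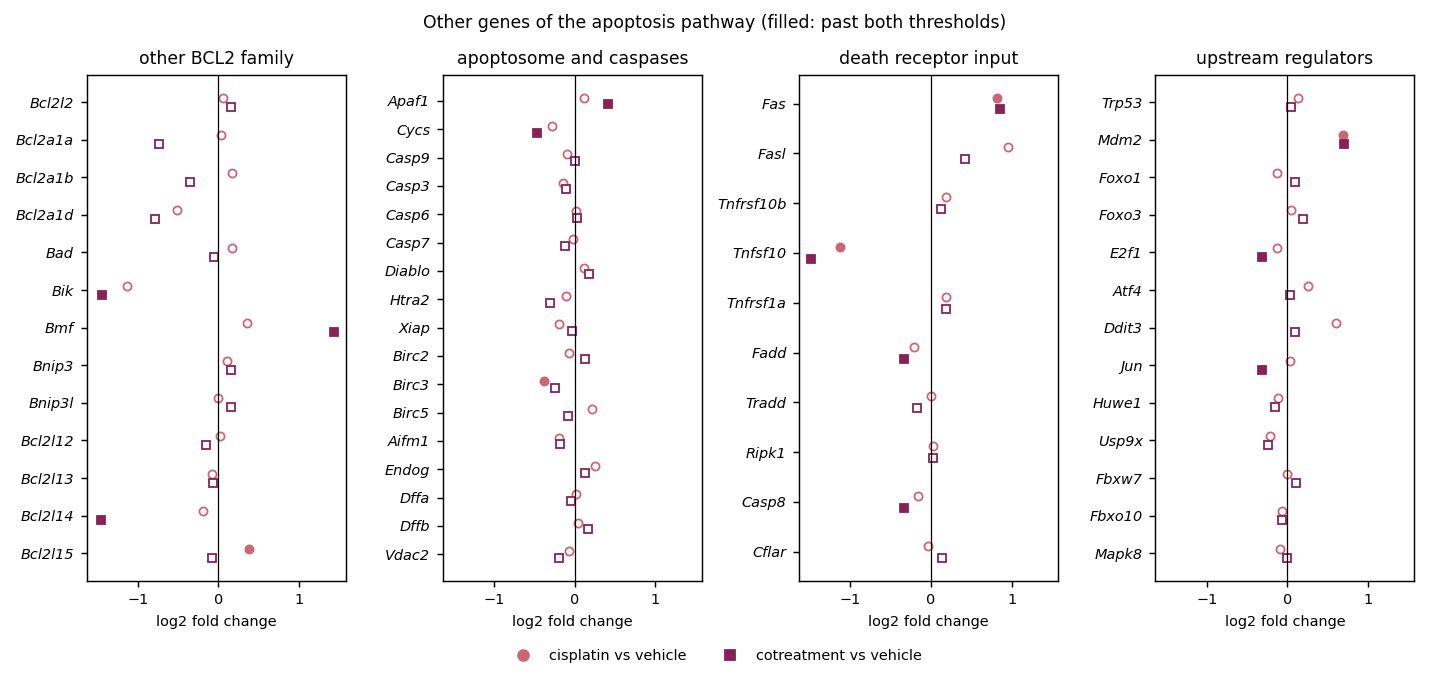
Log2 fold change against vehicle of every tested gene in the 4 other lists (other BCL2 family, apoptosome and caspases, death receptor input, upstream regulators), with filled points for called genes. Bmf at 1.43 after cotreatment is the highest of its list, in which Bik (-1.45) and Bcl2l14 (-1.46) lie as far to the left. Fas and Mdm2 lie right of 0 in both comparisons.

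Across the 20 tumors, the genes whose log2 CPM followed Bcl2l1 and Pmaip1 most closely were looked up among 12739 genes. For Bcl2l1 these were Dcxr (Pearson r = 0.970), Fbxw9 (r = 0.966) and Sesn2 (r = 0.963), and for Pmaip1 Ccng1 (r = 0.972), Ercc5 (r = 0.954) and Ei24 (r = 0.953). The coefficients describe 20 tumors that share the same 4 treatments and carry no test. Dcxr, a sugar reductase, was at 10.1 ± 1.52 CPM in vehicle, 26.8 ± 4.17 CPM after cisplatin and 29.6 ± 5.46 CPM after cotreatment. Ccng1, cyclin G1, was at 352 ± 76.7, 600.1 ± 132 and 609 ± 80.2 CPM in the same groups (SD, n = 5). Between members, the 7 pairs with a Pearson r beyond 0.75 in either direction were Bcl2l1 with Bbc3 (r = 0.92), Pmaip1 (r = 0.85) and Bax (r = 0.82), Bax with Bbc3 (r = 0.85), Bak1 with Bok (r = 0.78), and, in opposite directions, Bok with Bcl2 (r = -0.86) and Pmaip1 (r = -0.79). This limit was chosen after the values were seen.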

How the data were processed

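Raw counts of 20 tumors were deposited by the authors as whole numbers of reads per Ensembl gene, with no normalized values. Per the study's methods and the submitters' processing notes, libraries were made with a stranded poly(A) kit and sequenced as single-end reads, demultiplexed with bcl2fastq version 2.17.1.14, aligned to mm10 with STAR, and counted with HTSeq version 0.6.1p1 from uniquely aligned reads, so reads of near-identical copies are lost. The strand option of the counting is not given in the sources used here. Depth was 28.4 to 41 M reads per tumor. The reads carry no molecular identifiers.

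The filterByExpr function of edgeR, given the groups, left 16665 genes that hold 99.9% of the reads. Library sizes were scaled with the TMM method in edgeR version 4.0.16 (R version 4.3.3), a quasi-likelihood model with 4 group means and robust dispersions was fitted to all 20 tumors, and P values of the 2-sided tests were adjusted by Benjamini-Hochberg over all genes tested. A call needed an adjusted P under 0.05 and an absolute log2 fold change of at least 0.32, the limits the study states. SE and 95% intervals come from the same fit. CPM is the count over the scaled library size, CPM per kb is divided by the exon bases in GENCODE M21, and log2 CPM used a prior count of 2. The common biological coefficient of variation was 0.163. Groups came from the sample titles. Per the study's methods, tumor cells were placed under the skin of 1 flank per mouse and mice were allocated to the groups at random, so P values measure the spread between tumors of separate mice. The script was tested on simulated data.

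All 10 members are named in the comparisons of cisplatin and of cotreatment with vehicle. The other comparisons name some of them and give the rest by counts or ranges. From the other lists, genes called after cisplatin or cotreatment against vehicle are named, up to 6 per list. Foxo1, Foxo3, Trp53, Htra2, Vdac2 and Aifm1 were named after their values were seen. The members and lists were chosen with earlier results of these data known. Alternatives were DESeq2 version 1.42.0 (the authors used an earlier version of DESeq2), relative log expression and upper quartile scaling, calls with no fold limit, no filter or a minimum of 10 counts in every tumor, the run of library codes as a term, each run alone, the replicate number as a block, only the 2 groups compared, and each tumor left out in turn. Promoters were read from RefSeq windows on GRCm38.p6.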

Additional observations from a re-analysis of the deposited data

How the results depend on the processing

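Of 27 member fold changes followed over 817 alternative values, 771 kept their direction and their side of the threshold, 35 lost the call, 6 gained one and 5 reversed. Of the 30 or 31 alternatives per fold change, 20 left out a tumor, in part from a group not compared. The 771 values are therefore not independent checks. The 4 calls after cisplatin held under all alternatives run, and 0 members were called for KW6002 against vehicle or for the interaction under any. In the later run of codes alone, 2 members were called for cotreatment against vehicle and 1 (Bcl2l1) for cotreatment against KW6002, where 2209 and 1654 of all genes were called, against 3914 and 3884 over all tumors. For cotreatment against cisplatin, 0 members were called with no filter on low counts, with the run as a term, with only the 2 groups compared, or in the later or the earlier run alone, and 2 (Bid and Bcl2l11) with no fold limit. Of all genes, that comparison called 667 over all tumors, and 485, 570, 217, 1 and 287 under the settings that called 0, in the order named, so 0 members in the later run alone says nothing of the family. Leaving out a tumor gave 0 to 1 member there and 3 to 5 for cotreatment against KW6002, with 289 to 1013 and 3289 to 4058 of all genes called. Values that reversed were all uncalled and after cisplatin: in the later run alone Bcl2 was -0.01, Bak1 was 0.00 and Bcl2l11 was -0.13, Bcl2l11 was -0.02 with the run as a term, and leaving out a tumor moved Bcl2l11 between -0.07 (without cisplatin replicate 1) and 0.10. The cause was not tested. Replicate numbers are shared by the groups, but r between the deviations of same-numbered tumors ran from -0.392 to 0.391 and was above 0.1 in 12 of 30 pairs. For cisplatin with cotreatment it was above 0.1 in 4 of 5 pairs (0.157 to 0.226) and -0.163 in replicate 4, so the numbers were not taken to pair the tumors. With the replicate number as a block, the counts of members called were 4 after cisplatin, 5 after cotreatment against vehicle, 1 against cisplatin and 4 against KW6002, where Bcl2l11 (0.32, adjusted P = 0.0206) fell just below the fold limit. Of all genes, the block called 1610, 3769, 584 and 3768 in these comparisons. Scaling shifted the median of all genes by less than 0.1 on the log2 scale. Depth limits Bbc3 most, with 124 to 404 counts per tumor.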
